A study of Arabidopsis thaliana with 2 samples.

Results

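With earlier results of these data known, 7 Arabidopsis thaliana loci were chosen by name to represent auxin response and synthesis. These loci are YUC2, GH3.5, GH3.3, IAA18, IAA29, HAT2 and LBD16. They are 7 of the 13356 genes that could be named on the array, and each was read by 1 probe set, a group of short oligonucleotides for one transcript. The series holds 1 ATH1 array of whole plants of the line axr4-2, a mutant in the ecotype Col0, and 1 array of whole Col0 plants as the wild type. Both groups had light for 24 h a day at 22 °C and are labelled growth stage 1.02. The source names of both groups carry the same further code, which may give an age in days that differs from this stage. The labels used here do not explain the code, so the age of the plants is unclear. No treatment with auxin is given for either group. With 1 array each there is no replicate, no test and no SD between samples, and precision is limited by having so few arrays. Whole plants were sampled, so fewer cells of a type and less RNA per cell cannot be told apart.

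Auxin, indole-3-acetic acid, is made locally and carried from cell to cell. The influx carrier AUX1 brings it into cells, and AXR4, which resides in the endoplasmic reticulum, is required for AUX1 to reach the plasma membrane. Inside the cell, auxin joins TIR1/AFB receptors to Aux/IAA repressors, which are then degraded, and ARF transcription factors turn on their targets. Among these targets are Aux/IAA genes themselves and GH3 genes, whose products attach auxin to amino acids, so that the response limits itself. The comparison of axr4-2 with the wild type asks how transcript levels differ when this placement of AUX1 is disturbed. No probe set is named here for AXR4, AUX1, the PIN efflux carriers, the receptors or the ARF genes, and these are not analysed here; the mutant label was therefore not checked against the AXR4 transcript.

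Of the 7 genes, 6 read lower in axr4-2 than in wild type and GH3.3 read slightly higher. The differences were largest for IAA29, GH3.5 and HAT2, at 48.3%, 66.9% and 72.4% of the wild-type intensity, and small for IAA18, at 95.4%, and GH3.3, at 104%. The log2 ratio, taken as axr4-2 over wild type throughout, had a median of -0.38 over the 7 genes, beside -0.04 over 6381 measured genes. These medians were -0.28 and -0.02 with quantile normalization, and -0.27 and -0.02 once a trend of the ratio with brightness was removed. With that trend fitted on measured genes only, the median over the 7 genes was -0.25. A gene is called measured where the higher of its 2 values reached the median of that array, which 6 of the 7 did. IAA29 did so on the wild-type array only. Of the measured genes, 54.1% lay below 0, as did 58.9% of the 9001 named genes with both values at or above the floor of their array (the 25th percentile), so a lower reading in axr4-2 was by itself common. IAA29 was the 1 member with a log2 ratio of -1 or less, a 2-fold difference, and no member was 2-fold higher. Among measured genes, 1.47% were that far lower and 0.94% that far higher. That split of 94 lower and 60 higher genes became 70 and 76 with quantile normalization and 66 and 78 once a trend of the ratio with brightness was removed. With that trend fitted on measured genes only it was 51 lower and 107 higher, and with no filter on dim genes 228 and 99.

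**Figure D1:**
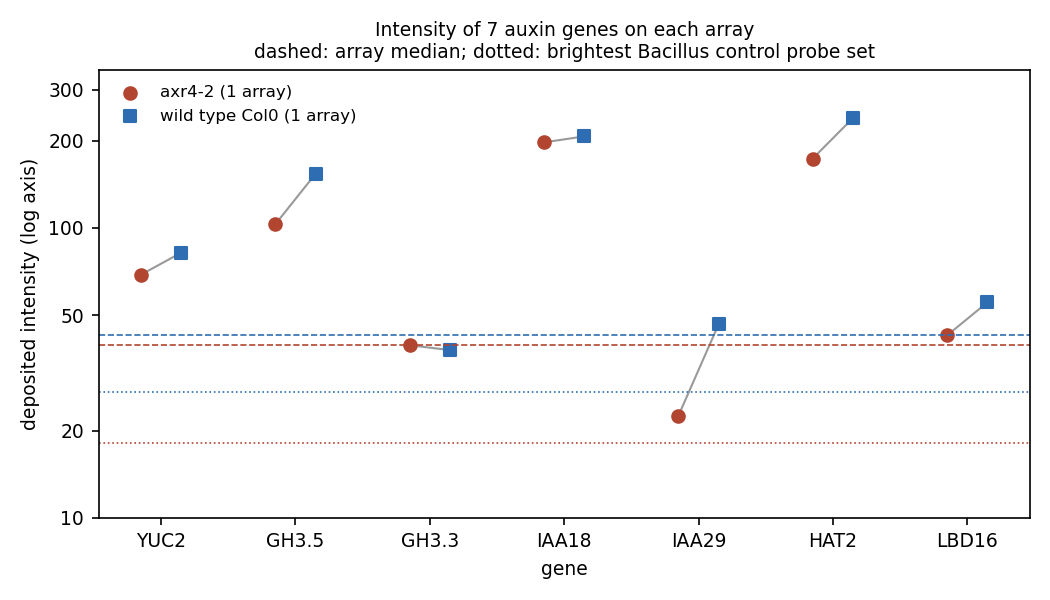
Deposited intensity (log axis) of the 7 genes on the axr4-2 array (circles) and the wild-type array (squares), 1 array each. Dashed lines mark each array's median (39.5 on axr4-2, 42.7 on wild type) and dotted lines its brightest Bacillus control probe set (18.1 and 27.1); IAA29 is the gene whose points lie farthest apart.

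The arrays themselves differed in background, in the ratios of dim genes and in RNA quality controls. Per the labels, the axr4-2 scan had a background of 70.79 and noise of 3.96, against 80.02 and 5.69 for the wild-type scan. Among genes with both values at or above the floor, the median log2 ratio was -0.24 at a mean log2 intensity between 4 and 5 and 0.01 between 7 and 8. The ratio of 3′ to 5′ signal of control transcripts, which grows as RNA is degraded, was lower on the axr4-2 array in 4 of 6 probe set pairs. The widest gap ran the other way, with 7.78 in axr4-2 and 4.08 in wild type for one actin pair. The part of RNA quality in the values below was not tested. The 18 probe sets for spike-ins, which are control RNAs of bacterial or phage genes, averaged 0.09 (SD 0.18) on the same scale. They do not measure the quality of the plant RNA. Where a gene had a further measured probe set, the pairs gave an SD of 0.41 for the log2 ratio of a single probe set (30 genes). The genes of the shoot marker list, RCA, PRK and LHCB4.1, had log2 ratios of 0.08, 0.11 and 0.12, and the root marker PYK10, a beta-glucosidase, had 0.01. The root hair expansin genes EXPA7 and EXPA18 had -0.30 and 0.06, and all 6 markers lay above the median of each array.

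YUC2 (AT4G13260) encodes a flavin monooxygenase of the YUCCA family, which carries out the last step from tryptophan to auxin by way of indole-3-pyruvate. Its probe set read 69 in axr4-2 and 82.2 in wild type. This placed it at the 63.8th percentile of all 22810 probe sets in axr4-2 and at the 67.3rd in wild type. The log2 ratio was -0.25, within the spread of a single probe set. To see how common such a ratio is at the same signal, each gene was set among named genes whose mean log2 intensity lay within 0.25 of its own. Of 1066 such genes for YUC2, 317 (29.7%) had a ratio as low or lower. The other synthesis genes with a name, YUC4, YUC6 and YUC11, had both values at or under the floor. Of the 20 loci listed for auxin synthesis, YUC2 was thus the 1 measured, and whether the pathway as a whole moved cannot be seen here.

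The GH3 enzymes conjugate auxin to amino acids and so lower its active pool. GH3.5 (AT4G27260), which the gene table lists as WES1 and which also accepts salicylic acid, read 103 in axr4-2 and 153.9 in wild type. It stood at the 73.2nd percentile of the axr4-2 array and at the 81.1st of the wild-type array, or rank 6108 from the brightest in axr4-2 and rank 4312 in wild type. Its log2 ratio of -0.58 was larger than the spread of a single probe set, an SD that the ratios of all measured genes also had (0.41). At this brightness genes scattered evenly around 0, with a median of -0.01, and 54 of 848 (6.37%) were as low or lower. The value therefore lay toward the low end of genes of its signal, but inside their 5th to 95th percentile of -0.64 to 0.57.

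GH3.3 (AT2G23170), an early auxin-induced gene of the same enzyme group, did not share this. It read 39.4 in axr4-2 and 37.9 in wild type, which gave 0.06 as the log2 ratio. Both values lay under their array medians, so it was the 1 member not counted as measured. Genes of this brightness had a median of -0.16, and 810 of 1178 (68.8%) had a ratio as low as that of GH3.3 or lower. GH3.17 (AT1G28130), a further member of the enzyme group and the other measured gene of the GH3 list, read 129.8 in axr4-2 and 116.2 in wild type (0.16). Of the remaining GH3 genes with a name, GH3.9 gave 16.9 in axr4-2, against 18.8 in wild type (-0.15). These values lay within the range of the Bacillus controls, so the direction of GH3.9 cannot be read. GH3.1 was under the floor on both arrays. Within the GH3 list, GH3.5 was thus lower in axr4-2, while GH3.17 and GH3.3 were slightly higher. Both of these last ratios were within the probe set spread.

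IAA18 and IAA29 encode Aux/IAA proteins, the repressors that auxin causes to be degraded. IAA18 (AT1G51950) was nearly equal on the arrays, at 197.4 in axr4-2 and 207 in wild type. Its log2 ratio was -0.07 and its percentile 84.9 in axr4-2 and 85.6 in wild type. Of 605 genes of its brightness, 254 (42%) had a ratio as low or lower.

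IAA29 (AT4G32280), which responds quickly to auxin and also to shade, was the dimmest member in axr4-2 and the one with the largest difference. Its intensity was 22.5 in axr4-2, against 46.6 in wild type, for a log2 ratio of -1.05. It held the 37.1st percentile of the axr4-2 array, against the 52.4th of the wild-type array, a difference of -15.3 percentile points. The next largest was -7.88, for GH3.5. Counted from the lowest ratio, IAA29 was number 76 of the 6381 measured genes, a set it entered through its wild-type value only. Of 1102 named genes of its brightness with both values at or above the floor, 34 (3.09%) had a log2 ratio of -1 or less. The axr4-2 value was above the brightest of 27 Bacillus control probe sets on that array, 18.1, and below that array's median of 39.5.

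The position of IAA29 among genes of like brightness depended on which genes were compared. Against 231 measured genes, 26 (11.3%) were as low or lower, their median was -0.51, and their 5th to 95th percentile of -1.21 to 1.09 included IAA29. At so low a mean signal the measured group holds genes whose values differ between the arrays, since a gene with 2 equal values of that size misses the filter. Against all 1102 named genes of that brightness with both values at or above the floor, 29 (2.63%) were as low or lower. Their 5th to 95th percentile was -0.93 to 0.62, which did not include it. Their median was -0.20 and 67.3% of them lay below 0, and the log2 ratio of IAA29 minus this median was -0.85. This wider comparison was chosen after seeing the data. It is the one given for the other genes, where it holds the same genes or nearly so, apart from GH3.3.

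**Figure D2:**
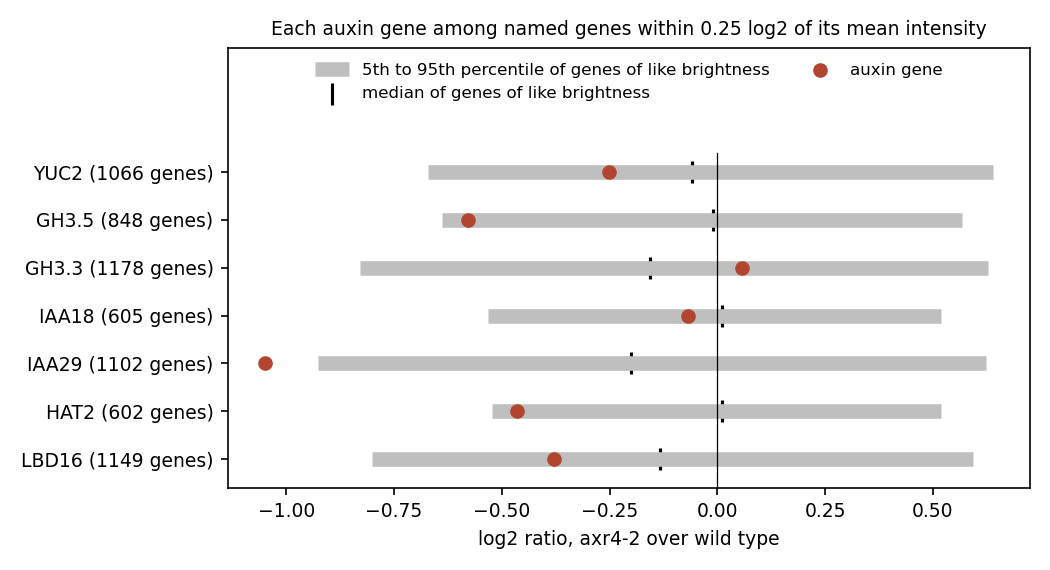
Log2 ratio of axr4-2 over wild type (x axis) for each of the 7 genes (points), with the 5th to 95th percentile (bars) and the median (ticks) of named genes within 0.25 log2 of its mean intensity and with both values at or above the floor; the number of such genes is in parentheses. IAA29 lies outside its bar, and the other 6 genes lie inside theirs, GH3.5 and HAT2 near the low end. By construction each bar leaves out the genes below the 5th and above the 95th percentile, so lying outside is not by itself unusual. The range of measured genes only, -1.21 to 1.09, would include IAA29.

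Other Aux/IAA genes gave little to set beside these. Of 29 loci in the list, 7 had a named probe set and IAA18 and IAA29 were the 2 measured. IAA31 read 9.2 in axr4-2, against 15.8 in wild type, and IAA33 gave 9.1 in axr4-2, against 17.2 in wild type. IAA30 read 13.2 in axr4-2 and 11.5 in wild type, while IAA20 and IAA34 were under the floor on both arrays. All of these values lay within the range of the Bacillus controls, so their direction cannot be read.

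HAT2 and LBD16 encode transcription factors whose genes respond to auxin. HAT2 (AT5G47370), a homeodomain-leucine zipper gene of class II that is induced by auxin, was the brightest member in wild type. It read 173.6 in axr4-2 and 239.7 in wild type, the 82.9th percentile in axr4-2 and the 87.7th in wild type. The log2 ratio was -0.47. Among 602 genes of that brightness, where the median was 0.01, 45 (7.48%) were as low or lower. HAT2 was the 1 named gene of 10 loci in its class.

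LBD16 (AT2G42430), a target of ARF proteins that acts in the initiation of lateral roots, read 42.6 in axr4-2 and 55.4 in wild type. These are the 51.9th percentile in axr4-2 and the 57.1st in wild type, and the log2 ratio was -0.38. Dim genes ran low as a whole at this signal, with a median of -0.13, and 283 of 1149 (24.6%) were as low as LBD16 or lower. Its relative LBD29, which acts in the same process, read 2.4 in axr4-2, against 3.1 in wild type, and was under the floor on both arrays. The 4 other LBD loci of the list have no named probe set here.

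**Figure D3:**
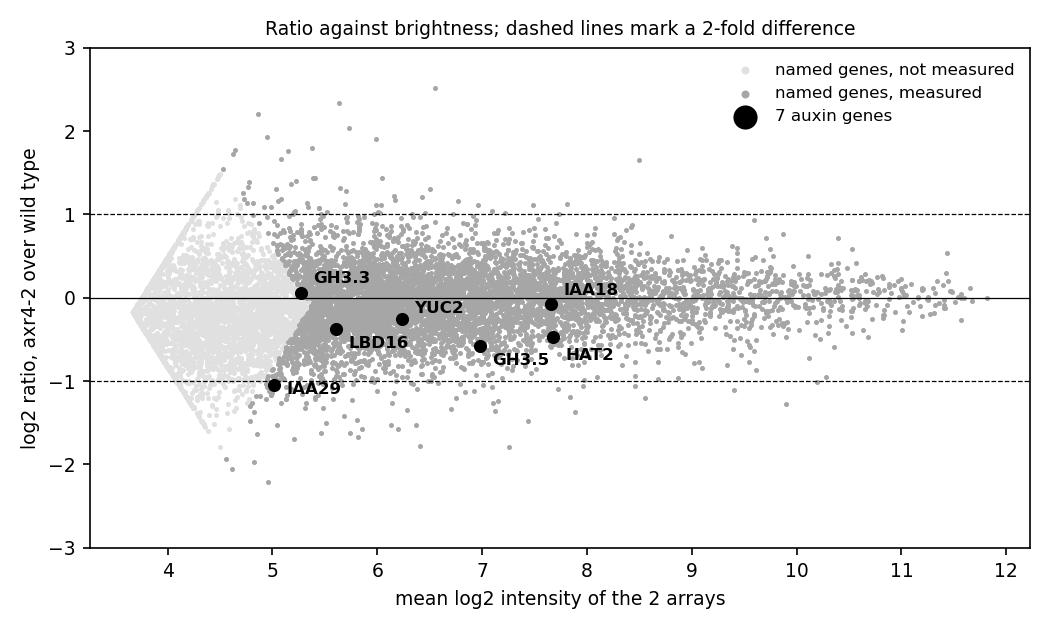
Log2 ratio of axr4-2 over wild type (y axis) against the mean log2 intensity of the arrays (x axis) for all named genes (light grey where not measured, darker where measured) and the 7 auxin genes (black). The spread narrows with brightness; 6 of the 7 genes lie below 0 and IAA29 lies on the line of a 2-fold difference.

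The members can also be ordered by how far each stood from the median of genes of its own brightness. This difference of log2 ratios was -0.85 for IAA29, -0.57 for GH3.5, -0.48 for HAT2, -0.25 for LBD16, -0.19 for YUC2, -0.08 for IAA18 and 0.21 for GH3.3. The order is that of the plain ratios. IAA29 moved toward 0 by more than LBD16 or YUC2 did, and GH3.3 moved away from 0. An SD of the probe set pairs was also taken by brightness: it was 0.34 at a mean log2 intensity of 6 or more (15 genes) and 0.45 below 6 (33 genes). GH3.5 and HAT2, both in the brighter range, exceeded 0.34, and IAA29, in the dimmer range, exceeded 0.45. The ratios of all measured genes had an SD of similar size, 0.41. Among named genes of like brightness the SD was 0.37 for GH3.5, 0.34 for HAT2 and 0.48 for IAA29. Ratios past the probe set SDs were thus not rare among genes at large. The probe set SDs hold only the disagreement of probe sets on the same RNA, and not the variation between plants, which was not measured.

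The 2-fold call of IAA29 depended on the processing. It was kept with median centring, at -1.01, and under the alternatives that left its value as it was. Under the others it was lost. The log2 ratio of IAA29 was -0.90 with quantile normalization and -0.88 with the brightness trend removed. It was -0.86 with the floor raised to the 40th percentile, and -0.70 with a pseudocount of 16 in place of the floor. With the trend fitted on measured genes only, it was -0.64. GH3.5 and HAT2 were nearly fixed under the same settings, from -0.58 to -0.51 and from -0.49 to -0.43. The sign of each of the 7 genes was the same under the 9 alternatives tried.

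**Figure D4:**
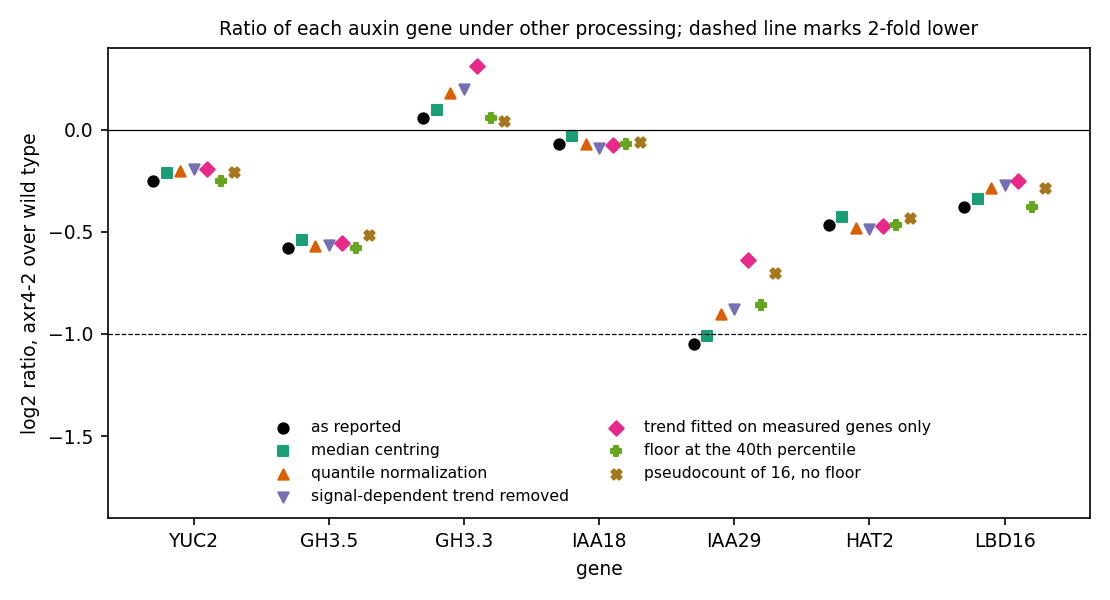
Log2 ratio of axr4-2 over wild type (y axis) for each gene as reported (circles) and under 6 of the alternatives (other symbols). IAA29 spans -1.05 to -0.64 and crosses the 2-fold line, while GH3.5 and HAT2 barely move and each gene stays on its own side of 0.

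Beyond the 7 genes, the auxin lists held 13 named genes, of which 2 were measured. Both were higher in axr4-2, by ratios within the spread of a single probe set. These were GH3.17, given above, and AT1G14130, which read 64.4 in axr4-2 and 50.5 in wild type (0.35). AT1G14130 has no symbol in the gene table and had been listed for auxin oxidation. Neither gene was set among genes of like brightness. The remaining 11 read between 0.5 and 16.9 in axr4-2 and between 2.3 and 18.8 in wild type. In all, 95 of 115 listed auxin loci are not named here. The lower readings of 6 members are therefore a description of the few auxin genes that could be seen.

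The gene whose pair of values lay nearest to each member was also found among measured genes, by distance on the log2 scale over the 2 arrays. For IAA29 it was AT5G07900, at 22.8 in axr4-2 and 47.7 in wild type, a distance of 0.04. For GH3.5 it was AT1G09280, at 101.9 in axr4-2 and 153.9 in wild type. For HAT2 it was AT2G36950, at 171.4 in axr4-2 and 242.6 in wild type. For YUC2 it was AT3G19540, for GH3.3 AT5G66520, for IAA18 AT4G12830 and for LBD16 AT2G17975. None of these loci has a symbol in the gene table, and among 6381 genes a near neighbour on 2 arrays says nothing of shared control.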

How the data were processed

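Biotin-labelled cRNA from total RNA was hybridised to 1-colour arrays, per the labels' protocols. The authors deposited linear intensities, 1 for each of 22810 probe sets. With 2% trimmed from each end, both arrays averaged 100. How the intensities were computed is not stated in the labels used here. Probe sets were named through the platform annotation (1 gene for 13513, several for 503, none here for 8794) and the RefSeq table of the assembly TAIR10.1, used for names only, which matched 13436 of the 13513.

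Values below the 25th percentile of an array were raised to it, and the log2 ratio was taken. The brightest probe set stood for its gene. Genes named are the 7 members, every measured gene of the auxin lists, the nearest gene to each member and the tissue markers; list genes that were not measured are named beyond that rule. Members and lists were chosen with earlier results of these data known. With 1 array per group no test was run. The calculation was checked by putting known changes into bright genes of a copy of the wild-type array, with no noise added. That check covers the arithmetic only and says nothing of the precision of the ratios. Protein and promoter sequences were not used here. Alternatives covered scaling, floor, filter and probe sets, with lowess at a span of 0.3. Calculations ran in Python 3.11.15 with statsmodels 0.14.6, pandas 2.3.3 and numpy 2.4.6; plots were drawn with matplotlib 3.10.9.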

Additional observations from a re-analysis of the deposited data

How the results depend on the processing

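Over 9 alternatives, 62 of 63 values of the 7 genes moved by less than the 0.41 SD of a single probe set and 0 changed sign. Of these alternatives, 3 left each value as it was, since members have 1 unshared probe set each and lie above the floor. The exception was IAA29 with the trend fitted on measured genes only (-0.64), an alternative added after seeing the data. Raising the floor to the 40th percentile changed the value of IAA29 alone. The SD of 0.41 is larger than the reported ratios of LBD16, YUC2, IAA18 and GH3.3, so it is a loose limit for these genes. The number of members 2-fold or more lower was 1 as reported and 0 with quantile normalization, either removal of the trend, the 40th percentile floor or the pseudocount; this count under other settings was also added later. With the pseudocount, which shrinks dim ratios by construction, 0.533% of measured genes were 2-fold lower and 0.329% higher. The median of the other auxin genes was 0.26 over 2 measured genes and -0.17 with no filter over 13. That last value comes from genes under the floor on both arrays, so it measures no transcript. The share of genes of like brightness at or below IAA29 was 11.3% among measured genes and 2.63% without the filter. No paired analysis was possible because each group has 1 array, and no replicate could be left out. Signal over background limits dim values such as the 22.5 of IAA29 in axr4-2, which lies close above the brightest Bacillus control, 18.1.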
